A study of Mus musculus with 12 samples.

Results

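The myotubularins and the class II and class III phosphoinositide 3-kinases form a pair of enzyme groups that remove and add the same phosphate on membrane lipids. They were followed here through 10 genes, namely the myotubularin genes *Mtm1*, *Mtmr1*, *Mtmr2*, *Mtmr3*, *Mtmr4*, *Mtmr12* and *Mtmr14* and the kinase genes *Pik3c2a*, *Pik3c2b* and *Pik3c3*. The genes were chosen by name, and each symbol was matched to its Ensembl identifier among the 55450 genes of the count table. All 10 were found, and all 10 were among the 19276 genes with enough reads to be tested.

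RNA was sequenced from the tibialis anterior (TA), a fast hindlimb muscle, taken from wild-type (WT) mice of the 129Pas background. The mice were late in gestation (E18.5, the embryonic day), 2 wks or 7 wks of age, and 4 mice were used at each age, with a library per mouse and 12 libraries in all. No mouse was treated and none carried a mutation or a transgene, and age is the only factor by which the labels separate the groups. The libraries were made from polyA RNA of muscle pieces, which hold muscle fibres together with the other cells of the tissue, and a lower value can stand for fewer cells of a type or for less RNA per cell, which bulk RNA cannot tell apart.

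Phosphatidylinositol 3-phosphate (PI3P) marks early endosomes and forming autophagosomes, where it recruits proteins that carry PI3P-binding domains. Class III kinase (the product of *Pik3c3*, also called Vps34) and the class II kinases make lipids with a phosphate at the D3 position, and active myotubularins take this phosphate off PI3P and off the bisphosphate that PIKfyve makes from it. Loss of myotubularin (MTM1) causes X-linked centronuclear myopathy, a severe congenital muscle disease, and mutations in dynamin 2 (DNM2) and amphiphysin 2 (BIN1) cause other forms of centronuclear myopathy.

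*Mtm1* (ENSMUSG00000031337, plus strand, chrX:70254373-70359297 in the GENCODE vM39 annotation of GRCm39) and *Mtmr1* (ENSMUSG00000015214, plus strand, chrX:70408350-70462948) both lie on chromosome X. *Mtmr2* is on chromosome 9, *Mtmr3* and *Mtmr4* are on chromosome 11, *Mtmr12* is on chromosome 15, *Mtmr14* on chromosome 6, *Pik3c2a* on chromosome 7 and *Pik3c2b* on chromosome 1. The reference proteins of the family differ in how close they are to MTM1, which is 603 residues long. MTMR2 was identical to MTM1 at 63.5% of 600 aligned residues and MTMR1 at 58.0%, against 39.3% for MTMR3, 38.5% for MTMR4, 30.8% for MTMR12 and 25.1% for MTMR14. PIK3C2A (1686 residues) and PIK3C2B (1632 residues) were identical at 47.5% of 1601 aligned residues.

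The catalytic stretch separates the active phosphatases from the inactive member, and it is given here as the coding sequence, 5′ to 3′, of the codons for His, Cys, 5 residues and Arg. Capitals mark the codons that align with the catalytic Cys and the Arg of *Mtm1*. Of the 7 myotubularin members, 6 carry the motif. *Mtmr12*, a known catalytically dead partner of MTM1, has other codons at both places, and its stretch was placed by alignment.
Mtm1, residues 374 to 381, exon 11 of 15, chrX:70343240-70343263, plus strand: cacTGCagtgacggatgggacAGG
Mtmr1, residues 441 to 448, exon 11 of 15, chrX:70445400-70445423, plus strand: cacTGCagtgatgggtgggatCGA
Mtmr2, residues 416 to 423, exon 11 of 15, chr9:13711238-13711261, plus strand: cacTGCagtgatggatgggatCGC
Mtmr3, residues 412 to 419, exon 12 of 19, chr11:4442779-4442802, minus strand: cacTGCtccgatggctgggatCGG
Mtmr4, residues 406 to 413, exon 12 of 19, chr11:87494925-87494948, plus strand: cacTGCtctgacggctgggacCGT
Mtmr14, residues 328 to 335, exon 11 of 19, chr6:113242951-113242974, plus strand: cacTGTatctcaggctgggacCGG
Mtmr12, residues 390 to 397, split over 2 exons, chr15:12261994-12263830, plus strand: ttgGAAgagaatgcttctgatCTC

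The class II kinases share the catalytic loop Asp, Arg, His, 2 residues and Asn. Capitals mark the codons of these 4 fixed residues, and the genes encode the same residues, with the same codon for His and different codons for Asp, Arg and Asn.
Pik3c2a, residues 1250 to 1255, exon 24 of 33, chr7:115951119-115951136, minus strand: GATCGGCACaatgacAAT
Pik3c2b, residues 1194 to 1199, exon 24 of 33, chr1:133026435-133026452, plus strand: GACAGACACaatgacAAC

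Each library held 63018968 to 123449246 reads counted on genes, and a member took between 377 (*Mtmr12*) and 14644 of them (*Mtmr3*). Values are CPM (counts scaled to library size) after TMM, a scaling that assumes that most genes do not change. Its factors ranged between 1.62 and 1.77 in embryos, between 0.810 and 0.946 in 2-wk-old mice and between 0.667 and 0.699 in 7-wk-old mice, while the share of reads from mitochondrial genes was 3.27% to 7.58% before birth, 7.81% to 10.3% in the second group and 12.9% to 16.02% in the oldest mice. Set against total-count scaling, TMM shifted the median change over all genes upward, on the log2 scale by 0.93 from E18.5 to 2 wks, by 0.35 from 2 to 7 wks and by 1.28 over the whole span, so a rise given below is a rise relative to most other genes. Muscle markers were present in every library, with sums of 13744 to 24317 CPM in embryos, 142184 to 169795 in the 2-wk-old and 159766 to 198220 in the 7-wk-old mice. In embryos this range overlapped that of the fibroblast markers. Fibroblast markers were lower at each later age, summing to 7990 to 14869 CPM in the embryos, 4649 to 6440 in the 2-wk-old and 1029 to 4222 in the 7-wk-old mice, and the sums for cycling-cell markers were 448 to 651, 110 to 216 and 23.7 to 34.4 CPM. Adipocyte markers summed to 178 to 2693 CPM among the embryos, 421 to 486 at 2 wks and 311 to 415 at 7 wks. For nerve and Schwann cell markers the sums were 72.6 to 131, 97.1 to 494 and 69.8 to 114 CPM. Those of endothelial markers were 343 to 495, 762 to 923 and 459 to 754 CPM. The part of these shifts in the members' changes was not tested. *Xist* had at most 29 reads and each of 4 Y-linked genes at least 732 in every library, the pattern of male tissue.

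Libraries also differed in how their counts followed the GC content of transcripts. The slope of log2 CPM per 10 points of GC was -1.19 in E18.5 replicate 1 and between -0.61 and -0.10 in the remaining embryos, 0.39 to 0.53 at 2 wks, and -0.18 to 0.49 at 7 wks, where replicate 3 was at 0.49. The members span 38.9% GC (*Mtm1*) to 56.2% (*Pik3c2b*), so values with the trend of each library over GC removed are given beside the fits. At 7 wks replicate 3 had the lowest value of its age for 9 of the members and the highest for *Mtmr14*.

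From E18.5 to 2 wks, 5 of the 10 members changed in edgeR's quasi-likelihood test (adjusted p under 0.05, Benjamini-Hochberg), 2 higher and 3 lower, where 65.7% of all tested genes changed, 31.5% higher and 34.2% lower. From 2 to 7 wks 5 changed, 4 higher and 1 lower, against 27.5% of all genes, 13.5% higher and 13.9% lower. Between E18.5 and 7 wks 9 changed, 5 higher and 4 lower, against 71.4% of all genes, 34.3% higher and 37.1% lower. As log2 fold changes, the medians over the members were 0.06, 0.37 and 0.51 in these comparisons, beside -0.09, -0.03 and -0.09 for all genes. A fit of only the 8 libraries of 2 and 7 wks called 6 members after 2 wks, 5 higher and 1 lower, and 6171 of 16913 genes (3044 higher, 3127 lower). Leaving out E18.5 replicate 1 and 7-wk replicate 3 also gave 6 members (5 higher), with 6530 of 19497 genes (3457 higher).

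The rises lost their call or direction with total counts, where 8, 2 and 8 members changed, all of them lower. Of all genes 75.1% changed then to 2 wks (13.2% higher, 61.9% lower), 32.9% after it (4.92% higher, 28% lower) and 80.9% over both steps (11.9% higher, 69% lower). With the GC trend removed, 5 (3 higher), 5 (4 higher) and 9 (5 higher) members changed, against 66.3% of all genes (27.4% higher, 38.8% lower), 33% (13.6% higher, 19.4% lower) and 75.3% (30.7% higher, 44.6% lower). The mice of a pair of ages did not overlap for 6 members to 2 wks (2 above, 4 below), where 61.3% of all genes did not overlap (28.9% above, 32.4% below). After 2 wks this held for 6 members (5 above, 1 below), against 33.7% of all genes (17.3% above, 16.4% below), and between E18.5 and 7 wks for 7 (3 above, 4 below), against 63.4% (30.2% above, 33.3% below).

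**Figure D1:**
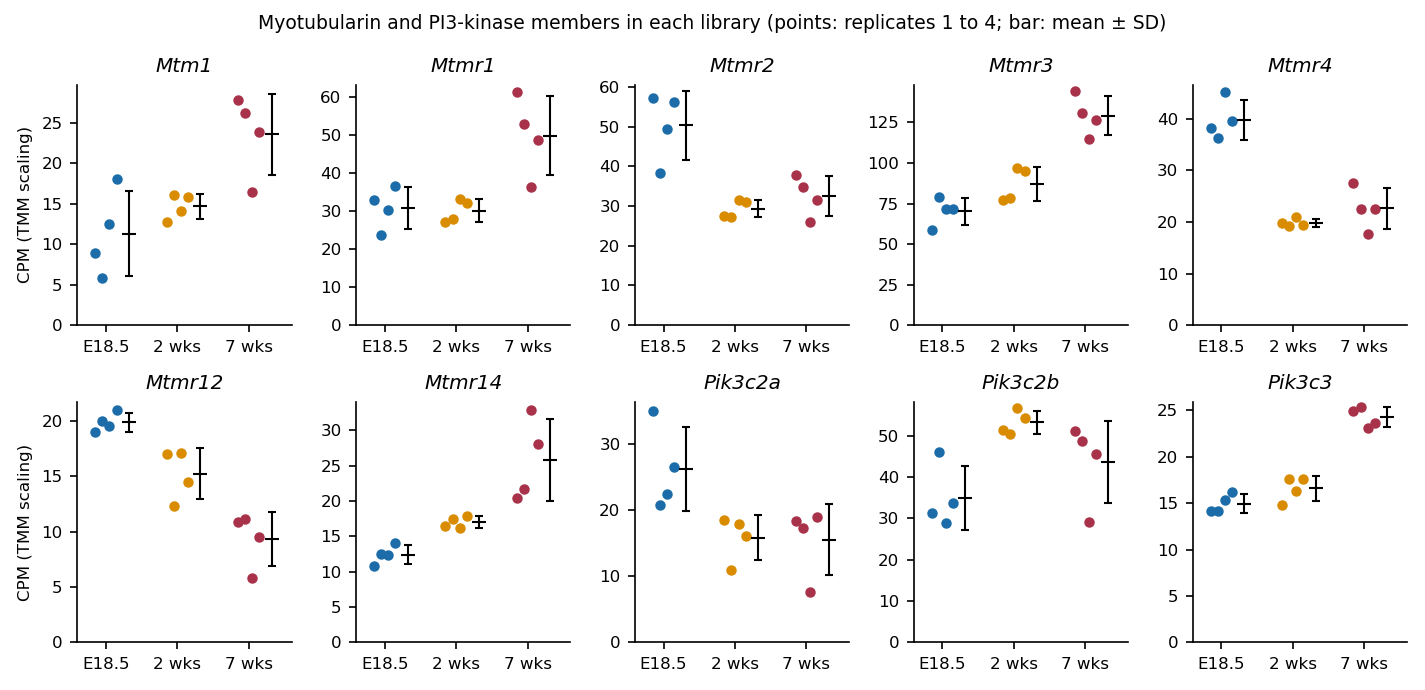
Level of each member in each of the 12 libraries, in CPM after TMM scaling on a linear axis from 0, by age. Points are mice, with replicates 1 to 4 from left to right, and the bar beside them is the mean ± SD of 4 mice. *Mtmr2* and *Mtmr4* were lower at both later ages than in every E18.5 library, *Mtmr12* was lowest at 7 wks, and *Mtmr3*, *Mtmr14* and *Pik3c3* were highest at 7 wks, an order that is not kept for these last 3 when libraries are scaled to their total counts.

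*Mtm1*, the phosphatase gene mutated in X-linked centronuclear myopathy, was at 8.87, 5.81, 12.5 and 18.1 CPM in replicates 1 to 4 of the E18.5 group, at 12.8, 16.05, 14.1 and 15.9 CPM at 2 wks, and at 27.8, 26.2, 16.5 and 23.9 CPM at 7 wks. The E18.5 mice were widely spread and enclosed the 2-wk values, while every 7-wk-old mouse was above every 2-wk-old mouse. From E18.5 to 7 wks *Mtm1* rose by 1.06 in log2 units (SE 0.28, the standard error of the fit, Benjamini-Hochberg adjusted p = 0.00384, edgeR), a 2.08-fold rise, and by 1.27 with the GC trend removed, but total counts gave -0.22 (adjusted p = 0.488). In 15 of 16 pairs the older mouse had more *Mtm1* (exact permutation p = 0.0571, two-sided). Neither step passed the test alone, with log2 fold changes of 0.38 (adjusted p = 0.245) to 2 wks and 0.68 (adjusted p = 0.0850) after it in edgeR with Benjamini-Hochberg adjustment. With total counts the first step was -0.56 (adjusted p = 0.0891, edgeR). These calls turned on single libraries. The first step was 0.70 (adjusted p = 0.0262, edgeR) without E18.5 replicate 4, and the second stayed at 0.68 but had an adjusted p of 0.0322 without E18.5 replicate 2 and of 0.0433 without E18.5 replicate 4. The E18.5 libraries are not part of the second step and bear on it through the spread that the model estimates over all ages. With the GC trend removed, the first step was 0.94 (adjusted p = 0.00604, edgeR) and the second 0.33 (adjusted p = 0.347). The first step minus the second was -0.30 (adjusted p = 0.644, edgeR) with TMM and 0.61 (adjusted p = 0.314) with the GC trend removed. Neither difference passed the test, so the timing of the rise was not settled.

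*Mtmr1*, the paralog of *Mtm1* on the same chromosome, was at 32.8, 23.6, 30.4 and 36.7 CPM at E18.5, at 27.2, 27.8, 33.3 and 32.1 CPM at 2 wks and at 61.4, 52.9, 36.3 and 48.7 CPM at 7 wks. All 7-wk-old mice were above all 2-wk-old mice, and the earlier ages overlapped. *Mtmr1* rose by 0.73 from 2 to 7 wks (SE 0.18, Benjamini-Hochberg adjusted p = 0.00817, edgeR), with 0.48 when the GC trend was removed and 0.39 with total counts (adjusted p = 0.102). To 2 wks its change was -0.04 (adjusted p = 0.864, edgeR), against 0.40 (adjusted p = 0.0105) with the GC trend removed and -0.97 (adjusted p = 0.000180) with total counts, so the 3 treatments did not give a common direction. From E18.5 to 7 wks it rose by 0.69 (adjusted p = 0.00281, edgeR), but fell by 0.58 with total counts. Exons of the minus-strand gene *Cd99l2* cover 18.6% of the exon bases of *Mtmr1*. The paper names a stranded library kit, but the strand setting of the counting is not given in the sources used here. Whether *Mtmr1* gained or lost reads through this overlap is not known.

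*Mtmr2*, the closest relative of *Mtm1* in sequence and a gene mutated in a demyelinating neuropathy, moved the other way. It was at 57.3, 38.4, 49.4 and 56.1 CPM at E18.5, at 27.5, 27.3, 31.5 and 31.0 CPM at 2 wks and at 37.9, 34.7, 25.9 and 31.4 CPM at 7 wks. Every mouse after birth was below every E18.5 mouse, and the later ages overlapped. *Mtmr2* fell by 0.78 to 2 wks (SE 0.16, Benjamini-Hochberg adjusted p = 0.000638, edgeR), by 0.43 with the GC trend removed and by 1.71 with total counts. After 2 wks its change was 0.15 (adjusted p = 0.516, edgeR), and -0.08 with the GC trend removed. The level over the whole span fell by 0.63 (adjusted p = 0.00242, edgeR), a fall that kept its direction and its call in every alternative run.

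*Mtmr3* and *Mtmr4* encode the related phosphatases that carry a FYVE domain, and they went in opposite directions. *Mtmr3* was at 58.7, 79.1, 71.4 and 71.8 CPM at E18.5, at 77.1, 78.6, 97.2 and 95.0 CPM at 2 wks and at 144.1, 130.8, 114.7 and 126.8 CPM at 7 wks. The 7-wk-old mice stood above all others, and a single E18.5 mouse, replicate 2, overlapped the 2-wk group. *Mtmr3* rose by 0.57 from 2 to 7 wks (SE 0.14, Benjamini-Hochberg adjusted p = 0.00904, edgeR) and by 0.55 with the GC trend removed, but its change was 0.23 (adjusted p = 0.217) with total counts. By 7 wks it was higher than at E18.5 by 0.88 (adjusted p = 7.40e-05, edgeR) and by 0.48 with the GC trend removed, and fell by 0.40 (adjusted p = 0.0164) with total counts. To 2 wks its change was 0.31 (adjusted p = 0.0665, edgeR), past the threshold at 0.37 without E18.5 replicate 2 and at 0.39 without 2-wk replicate 1, and it was -0.08 with the GC trend removed and -0.63 with total counts.

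For *Mtmr4* the E18.5 mice were at 38.2, 36.2, 45.3 and 39.5 CPM, the 2-wk-old mice at 19.9, 19.3, 21.0 and 19.3 CPM and the 7-wk-old mice at 27.6, 22.6, 17.8 and 22.5 CPM. The E18.5 values lay above all later ones, and the 2-wk-old mice were close to each other. *Mtmr4* fell by 1.002 to 2 wks (SE 0.14, Benjamini-Hochberg adjusted p = 3.94e-05, edgeR), to 0.499 of its E18.5 level, by 1.15 with the GC trend removed and by 1.94 with total counts. After 2 wks the change was 0.19 (adjusted p = 0.348, edgeR). From E18.5 to 7 wks it fell by 0.82 (adjusted p = 0.000154, edgeR), the same direction and call as in each alternative. Exons of *Mtmr4* overlap the minus-strand long non-coding RNA *Gm57408* over 7.98% of their bases.

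*Mtmr12*, the inactive member that binds and stabilizes MTM1 in muscle, was at 19.0, 19.9, 19.5 and 20.9 CPM at E18.5, at 17.0, 12.3, 17.0 and 14.5 CPM at 2 wks and at 10.8, 11.1, 5.78 and 9.55 CPM at 7 wks. The 3 ages did not overlap, with the highest values before birth and the lowest at 7 wks. *Mtmr12* fell by 0.71 from 2 to 7 wks (SE 0.19, Benjamini-Hochberg adjusted p = 0.0149, edgeR), by 0.87 with the GC trend removed and by 1.05 with total counts. Over the whole span it fell by 1.09 (SE 0.19, adjusted p = 0.000172, edgeR), to 0.470 of the E18.5 level, with falls of 1.17 and 2.36 in the same alternatives. To 2 wks the change of -0.38 had an adjusted p of 0.0907 in edgeR, and passed the threshold at -0.37 (adjusted p = 0.0247) without 7-wk replicate 3, at -0.43 with DESeq2 and at -1.31 with total counts.

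*Mtmr14*, also known as hJUMPY or MIP, encodes a more distant phosphatase whose variants have been linked to centronuclear myopathy. It was at 10.8, 12.4, 12.4 and 14.0 CPM at E18.5, at 16.4, 17.4, 16.2 and 17.9 CPM at 2 wks and at 20.4, 21.7, 32.9 and 28.0 CPM at 7 wks. No 2 ages overlapped, and 7-wk replicate 3 was the highest library. *Mtmr14* rose by 0.60 from 2 to 7 wks (SE 0.16, Benjamini-Hochberg adjusted p = 0.0134, edgeR) and by 0.63 with the GC trend removed, with 0.25 (adjusted p = 0.260) for total counts. Its rise of 0.45 to 2 wks (adjusted p = 0.0227, edgeR) was -0.12 (adjusted p = 0.422) with the GC trend removed and -0.48 with total counts, and missed the threshold at 0.39 without E18.5 replicate 1 (adjusted p = 0.0520) and at 0.43 without 2-wk replicate 4 (adjusted p = 0.0518). From E18.5 to 7 wks *Mtmr14* rose by 1.05 (adjusted p = 4.78e-05, edgeR), 2.08-fold, and by 0.51 with the GC trend removed, whereas total counts gave -0.23 (adjusted p = 0.209).

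Among the kinases, *Pik3c2a* was at 35.1, 20.8, 22.5 and 26.5 CPM at E18.5, at 18.48, 10.9, 17.9 and 16.1 CPM at 2 wks and at 18.4, 17.3, 7.64 and 18.9 CPM at 7 wks. All E18.5 mice were above all later mice, E18.5 replicate 1 was the highest library and 7-wk replicate 3 the lowest. *Pik3c2a* fell by 0.73 to 2 wks (SE 0.27, Benjamini-Hochberg adjusted p = 0.0283, edgeR), and by 1.65 with total counts, but its change was -0.15 (adjusted p = 0.483) with the GC trend removed. Without E18.5 replicate 1 the value was -0.56 (adjusted p = 0.0927, edgeR), without 2-wk replicate 2 it was -0.57 (adjusted p = 0.0918) and without 2-wk replicate 4 it was -0.72 (adjusted p = 0.0564). Between E18.5 and 7 wks it fell by 0.75 (adjusted p = 0.0220, edgeR) and by 0.53 with the GC trend removed, but the change was -0.58 (adjusted p = 0.0735) without E18.5 replicate 1, and -0.35 (adjusted p = 0.106) when 7-wk replicate 3 was left out too. Exons of the plus-strand long non-coding RNA *Gm44777* cover 17.6% of the exon bases of this gene.

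*Pik3c2b*, whose loss is known to ease the disease of mice that lack *Mtm1*, was at 31.3, 46.0, 28.8 and 33.7 CPM at E18.5, at 51.5, 50.5, 56.8 and 54.2 CPM at 2 wks and at 51.2, 48.7, 29.2 and 45.6 CPM at 7 wks. The 2-wk-old mice were above all E18.5 mice and formed a tight group, and 7-wk replicate 3 fell among the E18.5 values. *Pik3c2b* rose by 0.61 to 2 wks (SE 0.19, Benjamini-Hochberg adjusted p = 0.0105, edgeR), but with the GC trend removed the change was -0.33 (adjusted p = 0.195) and with total counts -0.32 (adjusted p = 0.136). Its transcripts have the highest GC content of the members, above that of 84.5% of the genes compared. After 2 wks the change was -0.29 (adjusted p = 0.270, edgeR), and a fall of 0.63 (adjusted p = 0.0216) with total counts. From E18.5 to 7 wks the change was 0.32 (adjusted p = 0.133, edgeR), and 0.48 and past the threshold without either E18.5 replicate 2 or 7-wk replicate 3. It was -0.43 with the GC trend removed and -0.95 with total counts.

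*Pik3c3*, the kinase that makes most endosomal PI3P, was at 14.1, 14.1, 15.3 and 16.2 CPM at E18.5, at 14.7, 17.6, 16.3 and 17.6 CPM at 2 wks and at 24.9, 25.3, 23.1 and 23.6 CPM at 7 wks. The 7-wk-old mice stood clear of all others. *Pik3c3* rose by 0.55 from 2 to 7 wks (SE 0.12, Benjamini-Hochberg adjusted p = 0.00465, edgeR) and by 0.35 with the GC trend removed, and its change was 0.20 (adjusted p = 0.254) with total counts. Over the whole span it rose by 0.70 (adjusted p = 0.000127, edgeR) and by 0.71 with the GC trend removed, and fell by 0.58 with total counts. To 2 wks the change was 0.15 (adjusted p = 0.275, edgeR), a rise of 0.36 (adjusted p = 0.00670) with the GC trend removed and a fall of 0.78 with total counts.

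**Figure D2:**
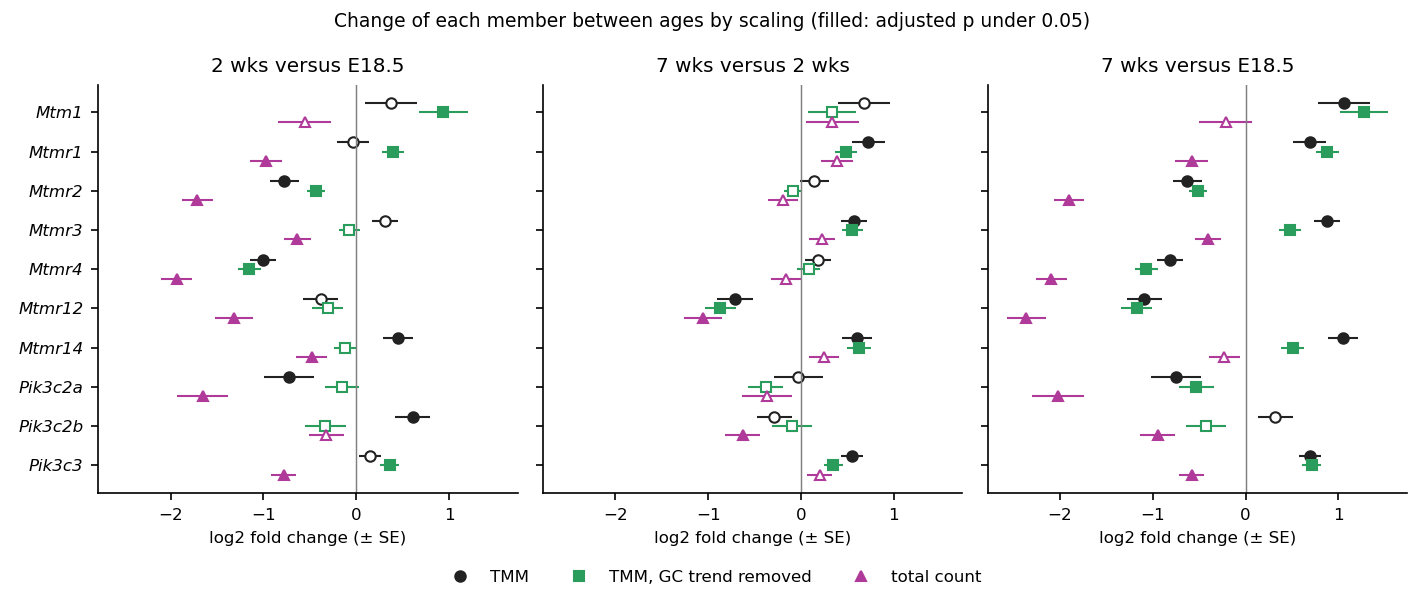
Log2 fold change of each member (± SE from edgeR) in the 3 comparisons of ages, with TMM scaling, with TMM and the GC trend of each library removed, and with scaling to total counts. Filled symbols have an adjusted p under 0.05. *Mtmr2*, *Mtmr4*, *Mtmr12* and *Pik3c2a* were lower at 7 wks than at E18.5 in all 3 treatments. Between these same ages the rises of *Mtm1*, *Mtmr1*, *Mtmr3*, *Mtmr14* and *Pik3c3* with TMM were negative with total counts, without a call for *Mtm1* and *Mtmr14*. From 2 to 7 wks these rising genes were at 0.20 to 0.39 with total counts, none past the threshold.

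A separate contrast in the same model asked whether the change before 2 wks differed from the change after it. It passed for 3 of the 10 members (1 higher, 2 lower), where 38.4% of all genes passed (21.6% higher, 16.8% lower). With total counts 6 passed, all lower, against 43.7% of all genes (12.1% higher, 31.7% lower), and with the GC trend removed 3, all lower, against 32.7% (17.4% higher, 15.3% lower). These last 3 were *Mtmr4*, *Mtmr3* with -0.63 (adjusted p = 0.0297, edgeR) and *Mtmr14* with -0.74 (adjusted p = 0.0210). TMM alone gave -0.26 and -0.15 for *Mtmr3* and *Mtmr14*. For *Mtmr4* the change to 2 wks was lower than the later change by 1.19 on the log2 scale (SE 0.25, Benjamini-Hochberg adjusted p = 0.00292, edgeR), and the call held with the GC trend removed (-1.24) and with total counts (-1.78). For *Mtmr2* this difference was -0.92 (adjusted p = 0.0182, edgeR), but -0.35 (adjusted p = 0.136) with the GC trend removed, -0.82 (adjusted p = 0.0691) without 2-wk replicate 1 and -0.85 (adjusted p = 0.0641) without 2-wk replicate 2. *Pik3c2b* had a difference of 0.89 (adjusted p = 0.0382, edgeR), which was -0.24 with the GC trend removed and kept its call in 4 of 12 fits with a library left out, with adjusted p of 0.0530 to 0.0966 in the others. The difference for *Mtmr1* was -0.76 (adjusted p = 0.0635, edgeR), and passed at -0.87 without E18.5 replicate 2, at -0.88 without 7-wk replicate 3 and at -1.36 (adjusted p = 0.00346) with total counts, but was -0.09 with the GC trend removed.

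Ratios between 2 genes of a library do not depend on how libraries are scaled to each other, and 9 of them, per kilobase of exon, were compared between the ages, 27 comparisons in all. With 4 mice against 4, the smallest p that a two-sided exact permutation test can give is 0.0286, and with Benjamini-Hochberg adjustment over the 27 comparisons none passed (0 of 27, lowest adjusted p = 0.0857), while 9 had an unadjusted p of 0.0286. The ratio of *Mtm1* to its inactive partner *Mtmr12* was 0.258, 0.160, 0.353 and 0.476 in the E18.5 mice, 0.413, 0.717, 0.456 and 0.603 at 2 wks and 1.42, 1.29, 1.57 and 1.38 at 7 wks. *Mtmr12* exceeded *Mtm1* per kilobase in every mouse up to 2 wks and *Mtm1* exceeded *Mtmr12* in every mouse at 7 wks. Where the ratio crosses 1 depends on the exon lengths used, 15.951 kb for *Mtm1* and 8.78 kb for *Mtmr12*. In CPM without lengths, the means at 2 wks were 14.7 for *Mtm1* and 15.2 for *Mtmr12*. The ratio was 4.89-fold higher at 7 wks than at E18.5 (log2 difference 2.29, SE 0.34, higher in 16 of 16 pairs, exact permutation p = 0.0286, adjusted p = 0.0857), with a log2 difference of 2.01 to 2.53 when any library was left out and of 2.599 with the GC trend removed.

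The ratio of *Mtm1* to its nearest relative *Mtmr2* was 0.0618, 0.0603, 0.101 and 0.129 at E18.5, 0.185, 0.234, 0.179 and 0.204 at 2 wks and 0.293, 0.301, 0.253 and 0.303 at 7 wks. The 3 ages did not overlap. It was higher by 1.26 on the log2 scale at 2 wks than at E18.5 (SE 0.28) and by a further 0.52 at 7 wks (SE 0.11), each in 16 of 16 pairs (exact permutation p = 0.0286, adjusted p = 0.0857), and by 1.48 and 0.42 with the GC trend removed. *Mtmr2* still exceeded *Mtm1* per kilobase in every library. The ratio of *Mtm1* to *Mtmr1* was 0.223 at 7 wks and 0.231 at 2 wks (geometric means), a log2 difference of -0.05 (SE 0.10), with an overlap of the mice (exact permutation p = 0.657). At E18.5 its geometric mean was 0.161, and the log2 difference from there to 2 wks was 0.52 (SE 0.26, higher in 14 of 16 pairs, exact permutation p = 0.114), or 0.65 with the GC trend removed (exact permutation p = 0.0571). To 7 wks it was 0.47 (SE 0.24, higher in 13 of 16 pairs, exact permutation p = 0.114), or 0.51 with the GC trend removed.

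Of the ratios with kinases, *Pik3c2a* to *Pik3c2b* was 1.001, 0.403, 0.697 and 0.702 at E18.5, 0.320, 0.193, 0.281 and 0.265 at 2 wks and 0.321, 0.316, 0.234 and 0.370 at 7 wks. All E18.5 mice were above all later mice, and the log2 difference to 2 wks was -1.36 (SE 0.31, exact permutation p = 0.0286, adjusted p = 0.0857), but 0.13 with the GC trend removed. These 2 genes lie at opposite ends of the GC range, at 39.4% and 56.2%. *Mtm1* to *Pik3c2b* was higher by 0.98 at 7 wks than at 2 wks (SE 0.09, 16 of 16 pairs, exact permutation p = 0.0286), and by 0.50 (exact permutation p = 0.114) with the GC trend removed. From E18.5 to 2 wks the log2 difference of *Mtm1* to *Pik3c2b* was -0.14 (higher in 6 of 16 pairs), but 1.37 (16 of 16 pairs) with the GC trend removed. Over the whole span it was 0.84, against 1.87 with the GC trend removed. *Mtm1* to *Dnm2*, the gene of the GTPase whose lowering is known to ease the disease of *Mtm1*-deficient mice, had a log2 difference of 0.81 (SE 0.22) from 2 to 7 wks (16 of 16 pairs, exact permutation p = 0.0286), 0.28 with the GC trend removed, and one of 0.26 over the whole span (exact permutation p = 0.657), against 1.36 with the GC trend removed. To 2 wks it was -0.55, against 1.08 with the GC trend removed. For the ratios of *Mtm1* to *Mtmr14*, *Pik3c3* and *Bin1* the mice overlapped in every comparison of ages. With the GC trend removed, *Mtm1* to *Mtmr14* was separated from E18.5 to 2 wks (1.17, 16 of 16 pairs), and the other comparisons of these ratios still overlapped.

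**Figure D3:**
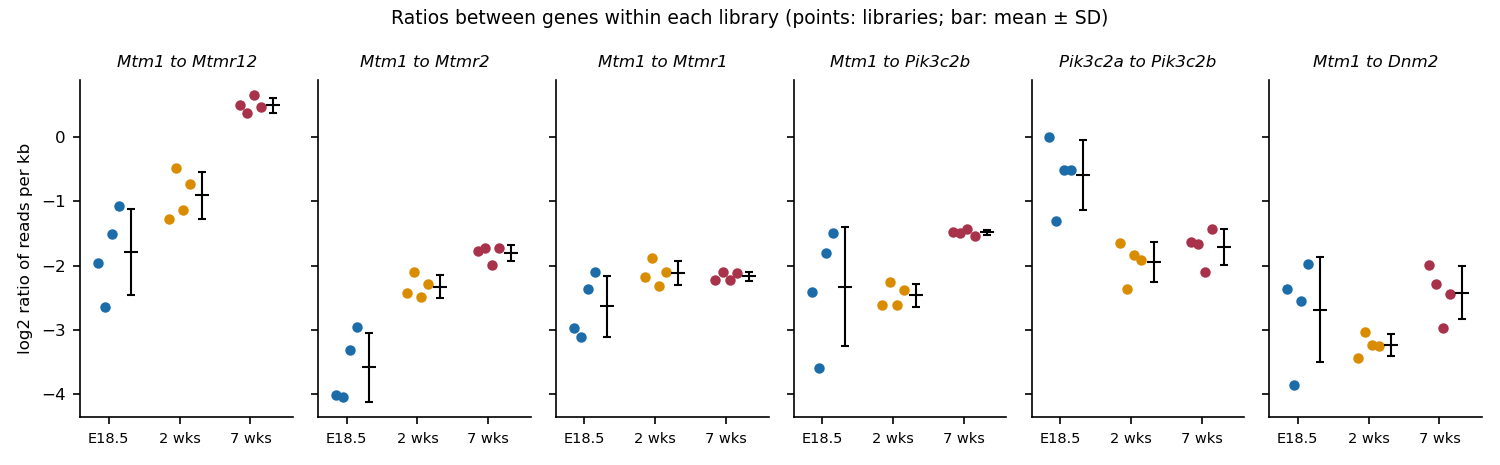
Log2 ratio of reads per kilobase between 2 genes in each of the 12 libraries, by age, for 6 of the 9 ratios. Points are mice and the bar is the mean ± SD of 4 mice. The position of 0 depends on the exon lengths used. *Mtm1* to *Mtmr12* was below 0 in all mice up to 2 wks and above 0 in all mice at 7 wks, and *Mtm1* to *Mtmr2* did not overlap between ages, whereas *Pik3c2a* to *Pik3c2b* was separated at E18.5 only without removal of the GC trend.

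Levels between genes were compared as CPM per kilobase of exon. The length of a gene is the union of all its annotated exons, 15.951 kb for *Mtm1* and 6.361 kb for *Mtmr2*. The order of the genes, and their shares below, depend on these lengths. At E18.5 *Mtmr2* led with 7.91 ± 1.36 (SD, n = 4), followed by *Mtmr3* with 6.68 ± 0.803 (SD, n = 4) and *Mtmr4* with 5.35 ± 0.524 (SD, n = 4), and neighbours in this order overlapped. With the GC trend removed, *Mtmr3* (7.94 ± 0.165) stood above *Mtmr2* (7.02 ± 0.663), and they overlapped again (SD, n = 4). *Mtm1* was lowest, at 0.710 ± 0.331 (SD, n = 4), below all libraries of the next gene, *Pik3c3*. At 2 wks *Mtmr3* led with 8.26 ± 1.004 (SD, n = 4), clear of *Pik3c2b* with 5.06 ± 0.268 (SD, n = 4), which overlapped *Mtmr2* with 4.61 ± 0.352 (SD, n = 4). With the GC trend removed, *Mtmr2* was at 5.22 ± 0.364, above *Pik3c2b* with 3.92 ± 0.211 (SD, n = 4). *Mtm1* was again the lowest, at 0.922 ± 0.0978 (SD, n = 4), but overlapped *Pik3c2a*. At 7 wks *Mtmr3* led with 12.3 ± 1.15 (SD, n = 4), clear of *Mtmr1* with 6.61 ± 1.39 (SD, n = 4). The lowest levels then were those of *Mtm1* (1.48 ± 0.315), *Pik3c2a* (1.32 ± 0.452) and *Mtmr12* (1.06 ± 0.280), where each gene overlapped the next (SD, n = 4).

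The make-up of the group, as each member's share of the summed reads per kilobase of the 10 genes, is free of scaling between libraries. *Mtmr2* took 21.9% ± 3.01 in embryos, 14.0% ± 0.118 in 2-wk-old and 12.3% ± 0.572 in 7-wk-old mice, and *Mtmr4* took 14.9% ± 1.44, 8.14% ± 0.472 and 7.29% ± 0.484 (SD, n = 4). *Mtmr3* took 18.6% ± 2.82, 25.0% ± 1.33 and 29.6% ± 1.136, the largest share at the later ages. The share of *Mtm1* was 1.94% ± 0.806, 2.81% ± 0.355 and 3.53% ± 0.392, and that of *Mtmr12* 6.29% ± 0.314, 5.27% ± 0.743 and 2.52% ± 0.452 (SD, n = 4). With the GC trend removed, *Mtm1* took 1.54%, 3.47% and 3.71%, and *Mtmr12* 5.96%, 5.59% and 2.57%. *Pik3c2b* had its largest share at 2 wks, with 15.4% ± 0.360 between 9.32% ± 2.48 and 9.90% ± 1.30. Removal of the GC trend gave it shares of 13.1% ± 2.76, 12.1% ± 0.624 and 9.39% ± 2.36 in the order of age (SD, n = 4).

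**Figure D4:**
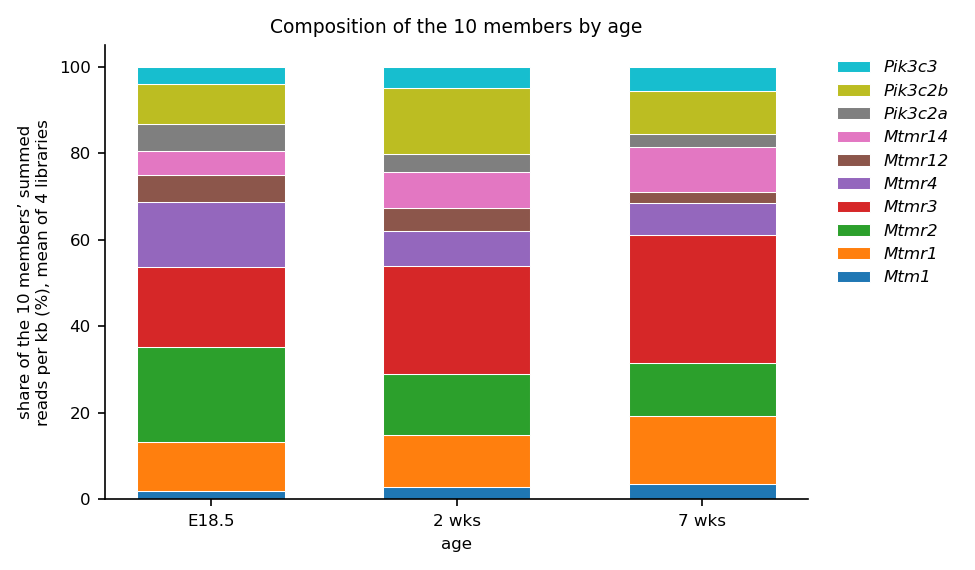
Share of each member in the summed reads per kilobase of the 10 genes, in percent, as the mean of 4 libraries at each age. The share of *Mtmr3* was 18.6%, 25.0% and 29.6% at E18.5, 2 wks and 7 wks, and that of *Mtmr2* was 21.9%, 14.0% and 12.3%.

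For each member, the gene with the most similar course was found among 8948 genes, by the root mean square (RMS) difference of log2 CPM over the 12 libraries after centring. *Mtm1* was closest to *Mmut* (0.12), the mitochondrial methylmalonyl-CoA mutase, then to *Ptgr2* (0.17) and *Opa1* (0.18), the dynamin-related GTPase of the inner mitochondrial membrane, with its own RMS around its mean at 0.62. The closest genes of the others were *Acbd5* for *Mtmr1* (0.11), *Chd1* for *Mtmr2* (0.10), *Nbas* for *Mtmr3* (0.07), *Kif3b* for *Mtmr4* (0.09), *Iqgap1* for *Mtmr12* (0.16), *Kat8* for *Mtmr14* (0.10), *Fam13b* for *Pik3c2a* (0.18), *App* for *Pik3c2b* (0.16) and *Wdr41* for *Pik3c3* (0.09). Within the group, the closest pairs were *Mtmr3* with *Pik3c3* (0.16) and *Mtmr2* with *Mtmr4* (0.17). The profiles share libraries, and so share depth and GC trends.

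The rest of the pathway was followed through 8 lists of 66 genes, of which 64 were tested. Of the 7 other myotubularins, 4 changed to 2 wks (2 higher, 2 lower), 3 after 2 wks (2 higher, 1 lower) and 7 over the whole span (4 higher, 3 lower). Of all genes 65.7%, 27.5% and 71.4% changed in these comparisons. The inactive members *Sbf1* (MTMR5) and *Sbf2* (MTMR13), the latter a partner of MTMR2, went apart, with a rise of 1.143 (adjusted p = 0.00118) and a fall of 0.75 (adjusted p = 0.000572) to 2 wks in edgeR with Benjamini-Hochberg adjustment, although *Sbf1* was at -0.01 with the GC trend removed and at 0.20 with total counts. *Mtmr9*, an inactive member that binds MTMR6, fell by 0.76 to 2 wks. After 2 wks the phosphatase gene *Mtmr6* rose by 0.71 (0.38 and not past the threshold with total counts) and *Mtmr11* fell by 0.71. To 2 wks *Mtmr6* was at 0.10, and rose by 0.54 with the GC trend removed. *Mtmr7* had 40 to 105 reads per library and changes of 0.55 (adjusted p = 0.0834) and 0.13 (adjusted p = 0.753) in edgeR, the first of which passed the threshold with the GC trend removed (0.87, adjusted p = 0.00353).

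Among the partners of the kinases (7 genes), 5 changed to 2 wks, 3 higher and 2 lower, and 2 after it, both higher, against 65.7% and 27.5% of all genes. *Becn1*, the Beclin 1 subunit that class III complexes share, rose by 0.59 and then by 0.46, and *Atg14*, which directs the complex to autophagosomes, rose by 0.47 and then by 0.50, while with total counts these genes fell to 2 wks by 0.34 and 0.45, and were at 0.11 and 0.15 after it. The later rise of *Atg14* missed the threshold at 0.42 to 0.48 without 2-wk replicate 1, 2-wk replicate 3 or 7-wk replicate 4. *Nrbf2*, a subunit of the autophagy complex, rose by 0.63 to 2 wks, or was at -0.31 with total counts. *Uvrag*, the subunit of the endosomal complex, fell by 0.42 to 2 wks (Benjamini-Hochberg adjusted p = 0.0195, edgeR), with -0.37 and no call without 2-wk replicate 3 or 4. *Pik3r4* (Vps15), the regulatory subunit bound to the product of *Pik3c3*, was at 0.30 (-0.03 with the GC trend removed and -0.64 with total counts) and 0.35 in the steps, and rose by 0.65 over the whole span (adjusted p = 0.00118, edgeR), but fell by 0.63 with total counts. The class II gene *Pik3c2g* fell by 5.51 to 2 wks from a mean of 2.48 CPM, and had 0 to 1416 reads per library. E18.5 replicate 3 alone was at 6.91 CPM, against 0.713 to 1.45 CPM in the other embryos and at most 0.103 CPM after birth. Without that library *Pik3c2g* fell by 4.21.

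Of the PI3P 5-kinase complex, *Pikfyve*, the kinase, fell by 0.90 to 2 wks and the scaffold gene *Vac14* rose by 1.37, and *Fig4* rose by 0.43 after it, values that were -1.83, 0.42 and 0.08 with total counts. The rise of *Fig4* missed the threshold without 2-wk replicate 1, 2-wk replicate 2 or 7-wk replicate 2 (0.36 to 0.44). Of the 11 tested genes that encode PI3P-binding effectors, 7 changed to 2 wks (4 higher, 3 lower) and 4 after it, all 4 higher. Of all genes 65.7% and 27.5% changed in these steps. With total counts 10 of the 11 changed to 2 wks (1 higher, 9 lower) and 1 after it, which was higher. Of all genes 75.1% changed then to 2 wks (13.2% higher, 61.9% lower) and 32.9% after it (4.92% higher). The later calls of *Eea1* and *Rbsn* were lost in 4 and 3 of 12 fits with a library left out. *Wipi1*, an autophagy effector, rose by 1.28 and *Zfyve16* (endofin) fell by 1.17 to 2 wks, and *Zfyve9* (SARA) rose by 1.03 after it. *Hgs*, with 0 to 8 reads, was not tested, and whether the counting lost its reads was not tested either. Of the 6 endosomal Rab GTPases, *Rab5c* rose by 0.92 and *Rab14* fell by 0.72 to 2 wks, and *Rab7* rose by 0.79 after it, with 3 of 6 genes changed in each step. With total counts *Rab5c* was at -0.01.

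Of 8 class I kinase genes, 4 changed to 2 wks (2 higher, 2 lower), with *Pik3cd* up by 1.41 (0.46 and not past the threshold with total counts) and *Pik3cg*, known from leukocytes, down by 1.86, and *Pik3ca* rose by 0.61 after it (Benjamini-Hochberg adjusted p = 0.0448, edgeR), but was at 0.32 (adjusted p = 0.0986) with the GC trend removed and at 0.28 with total counts. Macrophage markers summed to 162 to 203 CPM in embryos, 77.2 to 110 in 2-wk-old and 21.2 to 69.6 in 7-wk-old mice, and their part in the fall of *Pik3cg* was not tested. Of 14 other phosphoinositide phosphatases, 5 changed to 2 wks (4 higher, 1 lower) and 5 after it (4 higher, 1 lower), led by *Synj2* (1.36) and *Inpp5f* (-0.38) and then by *Inpp5a* (0.84) and *Inpp5d* (-0.68). Of all genes 65.7% changed to 2 wks and 27.5% after it. *Inpp5f* was at -0.09 (adjusted p = 0.550, edgeR) with the GC trend removed. *Inpp5a* was at 0.52 and not past the threshold with total counts. With each library left out in turn, the calls of *Pik3ca*, *Inpp5f* and *Inpp5d* were lost in 7, 8 and 8 of 12 fits, and that of *Inpp5a* without 2-wk replicate 1 or 2.

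The 8 tested genes of other centronuclear myopathies and of MTM1 partners all rose to 2 wks, against 31.5% of all genes that were higher, with a median of 1.37. With the GC trend removed 5 of the 8 rose and the median was 0.79, against 27.4% of all genes higher and a median of -0.21. With total counts 3 rose and the median was 0.45, against 13.2% of all genes higher and a median of -1.02. *Ryr1*, the calcium release channel, rose most, by 2.96, and *Dnm2* and *Bin1* rose by 1.01 and 0.77, but were at -0.02 and 0.29 with the GC trend removed and at 0.07 and -0.17 with total counts, none of these past the threshold. After 2 wks *Ttn* rose by 0.92 (0.59 and no call with total counts, 0.83 to 0.85 and no call without 2-wk replicate 1 or 2), *Dnm2* and *Bin1* were at -0.15 and 0.38 without passing the test (a fall of 0.50 for *Dnm2* with total counts), and *Hacd1*, an enzyme of very-long-chain fatty acid synthesis, fell by 0.84, with -0.78 (adjusted p = 0.0510, edgeR) when the GC trend was removed. *Ccdc78*, with 2 to 16 reads, was not tested. The 8 skeletal muscle markers, which share *Ryr1*, *Ttn* and *Des* with this list, also all rose to 2 wks. Their median was 2.83, or 2.21 with the GC trend removed. Of the members, 2 rose in the first step, *Mtmr14* and *Pik3c2b*, both without that direction when the GC trend was removed or when total counts were used.

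**Figure D5:**
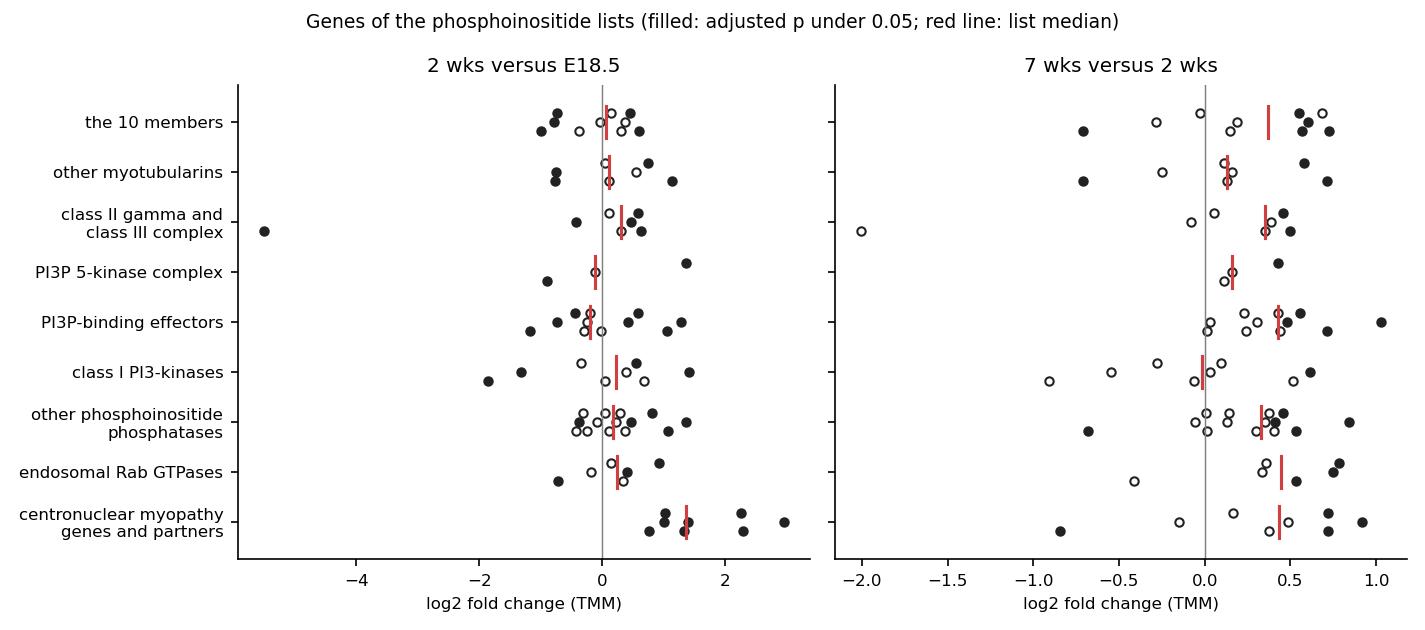
Log2 fold change with TMM scaling of the 10 members and of the tested genes of 8 lists of the phosphoinositide pathway, from E18.5 to 2 wks and from 2 to 7 wks. Each point is a gene, filled where the adjusted p from edgeR is under 0.05, and red lines are medians. Every tested gene of the centronuclear myopathy list lies right of 0 in the first step, with a median of 1.37, while the members lie on both sides with a median of 0.06. The median of that list was 0.79 with the GC trend removed, where 5 of 8 rose against 27.4% of all genes, and 0.45 with total counts.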

How the data were processed

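The authors deposited raw read counts per Ensembl gene for the 12 libraries, without normalization. The submitters' processing notes name bcl2fastq 2.17.1.14, cutadapt 1.10, STAR 2.5.3a, HTSeq 0.6.1p1 and the build mm10, whereas the methods name GRCm39. Annotation release and strand setting of the counting are not given in the sources used here. Counts were joined by Ensembl ID, and coordinates and coding stretches are those of GENCODE vM39 on GRCm39, describing genes rather than the counting. No stretch is given for *Pik3c3*.

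Counts were filtered with filterByExpr (19276 genes left), scaled by TMM factors and fitted in edgeR 4.0.16 (R 4.3.3, limma 3.58.1) by quasi-likelihood, in a single model of 12 libraries with age as the only term, at a Benjamini-Hochberg adjusted p of 0.05 over all genes. The biological coefficient of variation was 0.279. Single values were compared with two-sided exact permutation tests over 70 regroupings. Lengths are the union of annotated exons. Log2 values for the trend over GC content (lowess, span 0.3, known for 98.7% of the tested genes) and for likeness used a prior count of 2.

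The numbers of replicates were not treated as pairs. Correlations of same-numbered libraries ranged from -0.28 to 0.51 and 5 of 12 exceeded 0.1. They were not compared with those of differently numbered libraries, so they cannot decide whether the numbers pair the libraries. All 18 pairs of replicates differed by more than counting error (chi-square per degree of freedom 34.3 to 576.9). Each replicate is a separate mouse.

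Alternatives were total-count and upper-quartile scaling, TMM leaving out mitochondrially encoded genes and the 20 with most reads, DESeq2 1.42.0, 2 other filters, a replicate block, the 8 libraries compared, removal of trends over GC content or length, and each library left out. E18.5 replicate 1 and 7-wk replicate 3 left out together, and the GC trend with a block or with a library left out, were added after seeing the data. The members, lists and tests were chosen with earlier results of these data known. Named list genes are those with the largest rise and fall past the threshold in a step, with *Sbf1*, *Sbf2*, *Mtmr6*, *Mtmr7*, *Mtmr9*, *Pik3r4*, *Becn1*, *Atg14*, *Uvrag*, *Pikfyve*, *Dnm2* and *Bin1* always named. The procedure was tested on simulated data in which few genes changed, equally many up and down. Most genes changed between E18.5 and the later ages here, so that test could not check the choice of scaling. Tables and figures used Python 3.11.15, pandas 2.3.3, scipy 1.17.1, biopython 1.88 and matplotlib 3.10.9.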

Additional observations from a re-analysis of the deposited data

Results flagged for a closer look

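*Pik3c2a* in the 7-wk-old replicate 3 was at 7.64 CPM, far below the other mice of its age at 17.3 to 18.9 CPM, a gap of 0.852 of the whole range of the 4 libraries. This was the only such case in the 57 sets of 4 libraries examined, where chance gives 2.85. The same library was lowest of its age for 9 of the 10 members. Its slope over GC content was 0.49 (log2 CPM per 10 points), the highest of its age, and *Pik3c2a* transcripts have a GC content of 39.4%. The part of that slope in the low value was not tested.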

How the results depend on the processing

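Scaling to the total count moved the results most. The number of members changed was then 8 to 2 wks, 2 after 2 wks and 6 for the difference between the intervals, and 13 genes of the lists changed after 2 wks in place of 23. Of all genes 75.1%, 32.9% and 43.7% changed then in the same order, against 65.7%, 27.5% and 38.4% with TMM. With total counts the values from E18.5 to 2 wks were -0.56 for *Mtm1*, -0.63 for *Mtmr3*, -0.48 for *Mtmr14*, -0.32 for *Pik3c2b* and -0.78 for *Pik3c3*, and from E18.5 to 7 wks -0.22 for *Mtm1*, -0.58 for *Mtmr1*, -0.40 for *Mtmr3*, -0.23 for *Mtmr14*, -0.95 for *Pik3c2b* and -0.58 for *Pik3c3*, each opposite to TMM. With the GC trend removed, *Mtmr1* was at 0.40, *Mtmr14* at -0.12 and *Pik3c2b* at -0.33 to 2 wks, and the interval difference of *Pik3c2b* at -0.24, opposite again. The cause was not tested. The replicate block changed no call: 5, 5 and 9 members changed, and all 30 values of members kept direction and call. The block together with the GC correction gave 0.40, -0.11 and -0.28 for these genes and -0.12 for the interval difference. With each library left out in turn, 3 to 6 members changed to 2 wks (3 without E18.5 replicate 1 or 2-wk replicate 4), 5 to 6 after it, 8 to 10 over the whole span and 1 to 4 for the interval difference (1 without 2-wk replicate 1 or 2), and 3472 to 6145 of all genes changed after 2 wks, the lowest without 2-wk replicate 1. Over these 12 fits, 346 of 360 member values kept direction and call. The members had at least 377 reads in each library, and the effect of depth on their calls was not tested.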
